A study of Mus musculus with 4 samples.

Results

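Dual-specificity MAP kinase phosphatases were followed by their transcripts in macrophages sorted from mouse tumours. The 10 genes were given by symbol, as Dusp1, Dusp2, Dusp3, Dusp4, Dusp5, Dusp6, Dusp7, Dusp10, Dusp16 and Dusp22, and each was found among the 53379 genes of the count table. The 2 groups were C57BL/6J mice fed a high-fat diet (HFD) and C57BL/6J mice fed a control diet (CD), with 2 mice each, and all of them carried tumours of MC38, a mouse colon carcinoma line, for 21 days after implantation. The cells were sorted as positive for CD45, CD11b and F4/80, and their polyA RNA was sequenced with a stranded kit. The labels state neither what the diets contained nor how long they were fed, nor the age or sex of the mice. No gene was edited and no drug was given, per the labels.

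MAP kinases are switched on when a threonine and a tyrosine in their activation loop are both phosphorylated, and dual-specificity phosphatases switch them off by removing both phosphates. Several of the genes are themselves induced by the kinases their products restrain, which makes them negative feedback. In macrophages the family is known for limiting the cytokine output that follows Toll-like receptor signals. The products differ in place and substrate: Dusp1, Dusp2, Dusp4 and Dusp5 encode inducible nuclear enzymes, Dusp6 and Dusp7 encode cytoplasmic enzymes selective for ERK, Dusp10 and Dusp16 encode enzymes that act mainly on JNK and p38, and Dusp3 and Dusp22 encode small atypical enzymes without the kinase-binding domain of the others.

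The family split. By edgeR's quasi-likelihood test across 18422 genes, 4 of the 10 genes fell in HFD macrophages (Dusp5, Dusp2, Dusp16 and Dusp10), against a background of 7.91% of all genes tested that were called lower (called means a Benjamini-Hochberg adjusted p below 0.05). None rose, against a background of 2.61% called higher: the edgeR count was 0, while 2 genes, Dusp1 and Dusp6, were higher at an unadjusted p below 0.05 and DESeq2 called 1, Dusp6. Over all 18422 genes tested, 2501 were higher and 3256 lower at an unadjusted edgeR p below 0.05. These are also the background of the counts at that threshold in the lists below. Of the 10312 more abundant genes (average log2 CPM 3 or above), 4.92% were called lower and 2.95% higher. The 2 HFD libraries lay below both CD libraries in 6 genes and above both in 3, and the diets overlapped in 1, Dusp22. Over all genes tested, the diets did not overlap in 63.8%, with HFD below CD in 31.6% and above it in 32.2%. The median log2 fold change (HFD minus CD) was -0.58 over the 10 genes and 0.0 over all genes tested. Since every value comes from a mixture of cells, fewer cells of a type and less RNA per cell cannot be told apart in these libraries. All 10 genes passed the filter on low counts, and their lowest count in any library was 289 reads. How counting error compared with the difference between mice varied by gene: Dusp10 had 486 and 485 reads in the HFD libraries, and Dusp5 had 8958 and 5284 in the CD libraries.

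**Figure D1:**
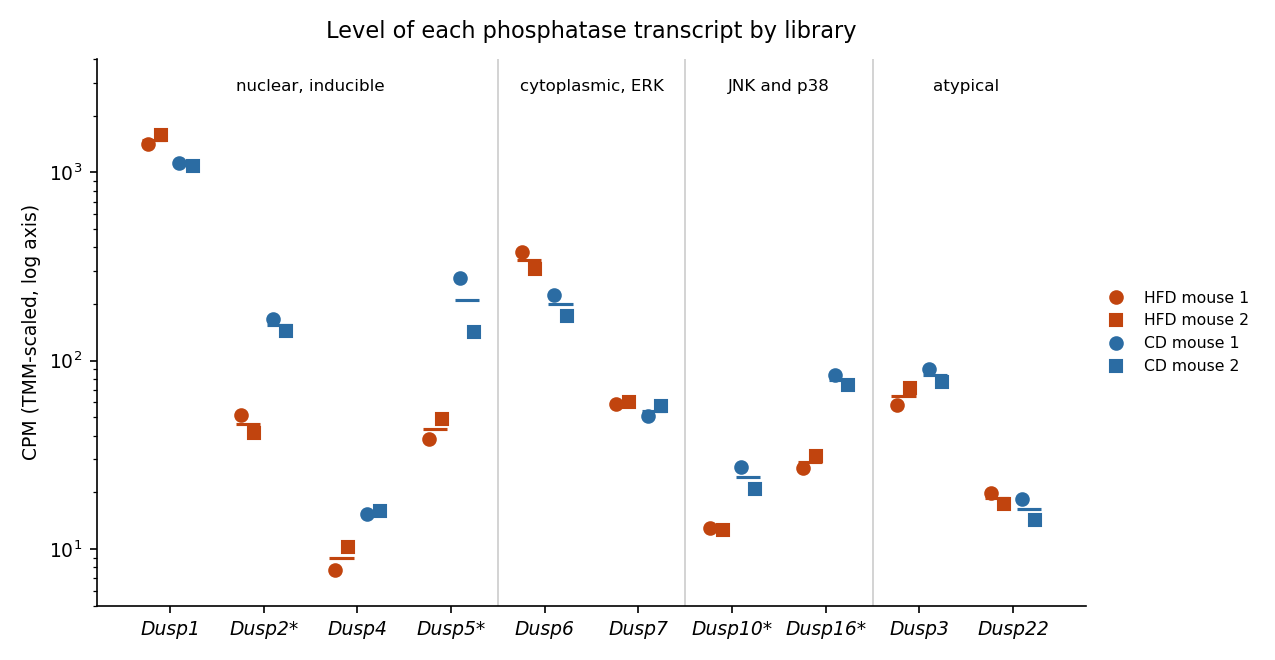
Level of each of the 10 phosphatase transcripts in each library, in CPM (reads scaled to library size) on a log axis; circles and squares are mouse 1 and mouse 2 of a diet, short lines the mean of a diet, and an asterisk marks an adjusted p below 0.05. The HFD points of Dusp2, Dusp5, Dusp10 and Dusp16 lie below both CD points, and those of Dusp1, Dusp6 and Dusp7 above both.

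Libraries held 34148682 to 37159552 counts, of which 66997 to 83573 fell on the 10 genes. Counts differed between the mice of a diet by far more than sampling noise (chi-square of 43.0 per degree of freedom for the HFD pair and 67.7 for the CD pair), so all 4 libraries were kept as separate samples. Ptprc, Itgam and Adgre1, which encode the antigens of the sort, were present in every library and were not called (adjusted p = 0.323, 0.96 and 0.823 by edgeR). Across all genes, 480 were called higher and 1457 lower in HFD.

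The windows around the start sites of the genes that fell, and of the most abundant genes, Dusp1 and Dusp6, are shown so that their motifs can be compared. They are RefSeq promoter windows on GRCm38.p6, from 250 bases before the start site to 50 bases after it, written 5′ to 3′ on the strand of the gene. Capitals mark matches on either strand to the cyclic AMP response element (CRE, TGACGTCA), its half-site (TGACG), the CArG box bound by serum response factor, the AP-1 site (TGACTCA or TGAGTCA) or the NF-kB site. A half-site inside a full CRE counts for both. The windows are chr19:53528895-53529194 on the plus strand for Dusp5, chr2:127335909-127336208 on the plus strand for Dusp2, chr6:134792579-134792878 on the minus strand for Dusp16 and chr1:184034131-184034430 on the plus strand for Dusp10. That of Dusp1 is chr17:26508423-26508722 on the minus strand, and that of Dusp6 is chr10:99262981-99263280 on the plus strand.
Dusp5: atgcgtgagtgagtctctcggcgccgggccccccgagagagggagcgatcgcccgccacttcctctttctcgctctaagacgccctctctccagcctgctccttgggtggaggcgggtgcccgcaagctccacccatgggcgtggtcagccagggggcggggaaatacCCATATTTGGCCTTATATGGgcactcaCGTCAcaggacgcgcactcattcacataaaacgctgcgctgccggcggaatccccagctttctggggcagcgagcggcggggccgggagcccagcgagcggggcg
Dusp2: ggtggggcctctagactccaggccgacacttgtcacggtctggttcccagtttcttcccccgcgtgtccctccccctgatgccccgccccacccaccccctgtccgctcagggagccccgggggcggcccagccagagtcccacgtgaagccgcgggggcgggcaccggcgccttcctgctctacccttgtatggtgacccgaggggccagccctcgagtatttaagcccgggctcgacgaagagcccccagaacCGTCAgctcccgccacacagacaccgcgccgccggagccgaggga
Dusp16: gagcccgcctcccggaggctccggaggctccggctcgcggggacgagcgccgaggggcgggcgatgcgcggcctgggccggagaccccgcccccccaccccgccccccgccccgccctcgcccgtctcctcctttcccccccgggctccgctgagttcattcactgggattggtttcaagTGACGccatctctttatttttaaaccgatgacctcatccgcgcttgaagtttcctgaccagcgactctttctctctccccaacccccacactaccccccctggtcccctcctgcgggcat
Dusp10: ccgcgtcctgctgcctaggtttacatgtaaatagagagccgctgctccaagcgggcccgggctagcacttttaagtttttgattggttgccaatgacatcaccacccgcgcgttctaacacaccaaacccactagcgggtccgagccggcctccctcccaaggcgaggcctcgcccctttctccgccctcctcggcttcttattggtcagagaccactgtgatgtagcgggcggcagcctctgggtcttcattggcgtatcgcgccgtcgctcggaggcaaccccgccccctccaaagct
Dusp1: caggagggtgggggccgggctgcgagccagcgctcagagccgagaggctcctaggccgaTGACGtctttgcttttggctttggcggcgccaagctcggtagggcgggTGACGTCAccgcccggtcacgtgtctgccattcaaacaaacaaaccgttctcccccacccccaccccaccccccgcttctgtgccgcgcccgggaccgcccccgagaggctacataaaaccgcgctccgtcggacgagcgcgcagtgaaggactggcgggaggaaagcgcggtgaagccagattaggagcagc
Dusp6: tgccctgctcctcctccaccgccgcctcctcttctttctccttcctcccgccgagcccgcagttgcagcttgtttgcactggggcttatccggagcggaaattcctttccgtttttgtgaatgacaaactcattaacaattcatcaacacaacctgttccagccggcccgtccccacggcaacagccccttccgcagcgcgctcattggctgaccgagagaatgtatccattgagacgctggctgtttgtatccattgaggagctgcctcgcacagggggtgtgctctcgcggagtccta

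In these letters, Dusp5 carried a pair of adjoining CArG boxes starting at positions -82 and -72 (the start site is 0) and a CRE half-site at -55. Dusp1 carried a full CRE at -143 and a further half-site at -191. Dusp16 had 1 half-site at -70 and Dusp2 had 1 at 5, past the start site, while the windows of Dusp10 and Dusp6 held none of the 5 motifs. Windows were found for 9 of the 10 genes, and Dusp4 had none in the table. A CArG box was present in 1 of the 9 windows and in 1.63% of all 32851 promoter windows, a full CRE in 1 of 9 and in 1.79%, a half-site in 4 of 9 and in 20.8%, an AP-1 site in 0 of 9 and in 5.2%, and an NF-kB site in 1 of 9 (Dusp22) and in 8.46%. The GC box (GGGCGG) was present in 8 of 9 windows and in 35.7% of all. None of the CRE, half-site, CArG, AP-1 and NF-kB motifs was present in the windows of all 4 genes that fell. A match of letters is not a bound site, and binding was not measured.

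**Figure D2:**
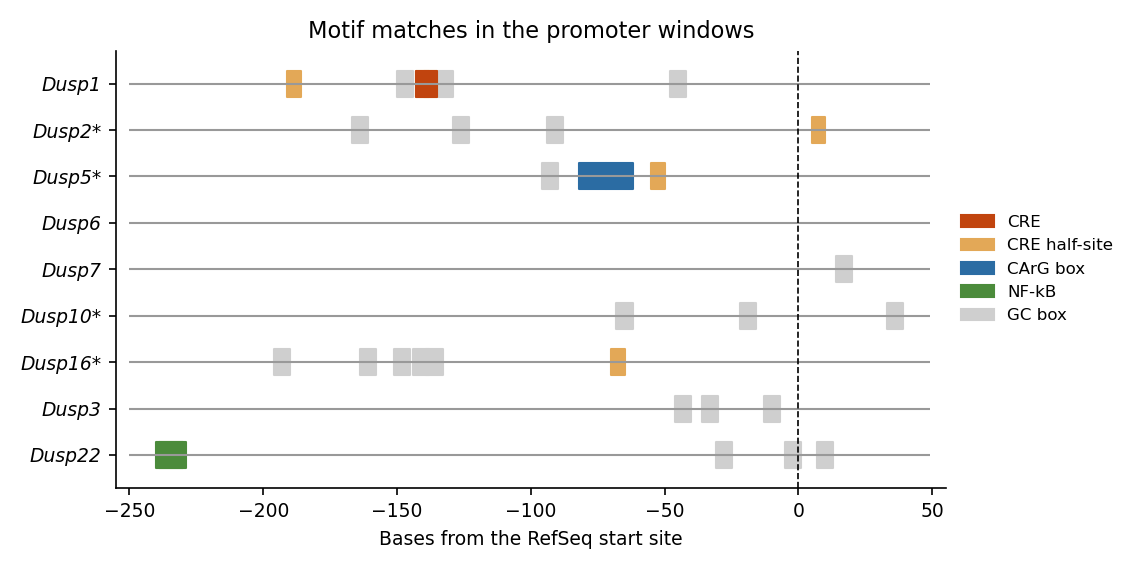
Motif matches along the promoter windows of 9 phosphatase genes, by distance in bases from the RefSeq start site (dashed line); an asterisk marks genes called lower in HFD. The adjoining CArG boxes of Dusp5 and the full CRE of Dusp1 stand out, and Dusp6 has no match to the motifs drawn.

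Among the inducible nuclear enzymes, Dusp5 changed most. Dusp5, whose product removes phosphate from ERK in the nucleus, is encoded on chromosome 19 from 53529109 to 53542431 (GRCm38, plus strand). It had 38.2 and 48.9 CPM in the HFD libraries, against 276 and 142 CPM in the CD libraries. Both HFD libraries were low, with HFD mouse 1 at 0.782 times the level of HFD mouse 2. CD mouse 1 held 1.94 times the level of CD mouse 2, so that the size of the fall depended on which CD mouse was used. The mean was 43.6 ± 7.55 CPM in HFD and 209 ± 94.8 CPM in CD (SD, n = 2 each), a log2 fold change of -2.26 (SE 0.33, 95% interval -3.07 to -1.45, edgeR adjusted p = 0.0193), or 4.8-fold lower. The log2 fold change was -1.7 without CD mouse 1 and -2.66 without CD mouse 2. The call ended without HFD mouse 1 (-2.08, adjusted p = 0.146) and without HFD mouse 2 (-2.43, adjusted p = 0.0904).

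Dusp2, an enzyme of blood cells that acts on ERK and p38 in the nucleus, lies on chromosome 2 from 127336159 to 127338376, a compact gene of 2.2 kb. It had 51.4 and 41.1 CPM in HFD, against 166 and 144 CPM in CD. The 2 mice of each diet were close and the diets were far apart. Its level was 46.2 ± 7.31 CPM in HFD and 155 ± 15.5 CPM in CD, a log2 fold change of -1.75 (SE 0.18, 95% interval -2.18 to -1.32, edgeR adjusted p = 0.00935), or 3.35-fold lower. Of all genes tested, 0.51% had a p at least as small. The call held in each of the 4 fits that left out 1 library, with log2 fold changes of -1.9 to -1.57 and adjusted p of 0.000346 to 0.0286. The neighbouring gene Astl starts 262 bases past the 3′ end of Dusp2 on the same strand, and it had 4 and 4 reads in HFD, against 42 and 94 reads in CD. It passed the low-count filter through the CD libraries alone, so no test of it is given.

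Dusp4, a nuclear enzyme that acts on ERK and JNK, was low in abundance, with 7.72 and 10.2 CPM in HFD, against 15.3 and 16 CPM in CD. The diets did not overlap, but the difference was not called (log2 fold change -0.81, SE 0.21, 95% interval -1.31 to -0.3, edgeR adjusted p = 0.0599). DESeq2 called it lower (-0.79, adjusted p = 0.0302), as did edgeR without a filter on low counts (adjusted p = 0.0236). Of the 10 settings tried, 3 called it. The log2 fold change was -0.6 without HFD mouse 1, -1.0 without HFD mouse 2, -0.83 without CD mouse 1 and -0.77 without CD mouse 2. The gene lies on chromosome 8 from 34807297 to 34819894.

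Dusp1, the enzyme best known for shutting off p38 and JNK after a Toll-like receptor signal, went the other way in its values. It was by far the most abundant of the 10, with 52732 and 60496 reads in HFD and 36505 and 40250 reads in CD. That was 1408 and 1577 CPM in HFD, against 1125 and 1082 CPM in CD, so both HFD libraries were above both CD libraries. The mean was 1492 ± 119 CPM in HFD and 1104 ± 30.6 CPM in CD (SD, n = 2 each), and the log2 fold change of 0.44 (SE 0.16, 95% interval 0.05 to 0.83) was not called (edgeR adjusted p = 0.13). No setting tried called it (log2 fold change 0.37 to 0.53, adjusted p 0.0935 to 0.465 over 10 settings).

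Neither gene of the cytoplasmic ERK phosphatases was lower in HFD. Dusp6, the ERK-selective feedback enzyme of the cytoplasm, on chromosome 10 from 99263231 to 99267489, had 378 and 308 CPM in HFD, against 224 and 173 CPM in CD. Both HFD libraries were above both CD libraries, by more than the gap between the mice of either diet. The level was 343 ± 49.8 CPM in HFD and 199 ± 35.7 CPM in CD, a log2 fold change of 0.79 (SE 0.2, 95% interval 0.31 to 1.27) whose edgeR adjusted p of 0.0544 just missed the threshold. The result sat on the edge of a call, and 4 of the 10 settings called Dusp6 higher. DESeq2 did so (0.8, adjusted p = 0.0054), as did edgeR without a low-count filter (0.84, adjusted p = 0.00293). Both of these also called more genes higher over the whole table (1056 and 1552, against 480). EdgeR did not call Dusp6 with the size factors of DESeq2 (adjusted p = 0.0568), upper-quartile scaling (0.0523) or a minimum count of 50 (0.0682). Over the 4 fits that left out 1 library the log2 fold change ran from 0.62 (without CD mouse 2) to 0.99 (without CD mouse 1). It was 0.65 without HFD mouse 1 and 0.95 without HFD mouse 2. A pair of non-coding genes just past the 3′ end of Dusp6 had fewer reads in HFD: Gm34921, on the opposite strand, had 27 and 16 reads in HFD, against 45 and 76 in CD, and Gm48089, on the same strand, had 11 and 11 in HFD, against 22 and 27 in CD, neither of them called (adjusted p = 0.0715 and 0.123).

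Dusp7, the other cytoplasmic ERK enzyme, on chromosome 9 from 106368632 to 106375724, had 59.2 and 60.2 CPM in HFD, against 50.7 and 57.3 CPM in CD. The means of the diets lay closer together than the 2 CD mice did, and the log2 fold change was 0.15 (95% interval -0.2 to 0.49, edgeR adjusted p = 0.519).

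Both genes of the JNK and p38 phosphatases fell. Dusp16, whose product acts mainly on JNK and shuttles between nucleus and cytoplasm, lies on chromosome 6 from 134715468 to 134792625 on the minus strand. It had 27 and 31.1 CPM in HFD, against 84.2 and 74.2 CPM in CD, and the libraries of each diet were close together. The level was 29 ± 2.89 CPM in HFD and 79.2 ± 7.04 CPM in CD (SD, n = 2 each), a log2 fold change of -1.45 (SE 0.16, 95% interval -1.83 to -1.07, edgeR adjusted p = 0.0108), or 2.73-fold lower. The call held in each of the 4 fits without 1 library (-1.53 to -1.33, adjusted p 0.000602 to 0.0339).

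Dusp10, which acts on JNK and p38, fell less and less firmly. It lies on chromosome 1 from 184013302 to 184075636 and had 13 and 12.6 CPM in HFD, against 27.3 and 20.9 CPM in CD. The HFD mice were almost equal and the CD mice were 1.31-fold apart. The log2 fold change was -0.91 (SE 0.19, 95% interval -1.37 to -0.45, edgeR adjusted p = 0.0383), or 1.88-fold lower, and the call ended without HFD mouse 1 (adjusted p = 0.19) and without HFD mouse 2 (adjusted p = 0.171). On its opposite strand 1700056E22Rik overlaps the gene, with 77 and 84 reads in HFD and 132 and 115 reads in CD (not called, adjusted p = 0.135). The strand setting of the counting is not given, so reads of such overlapping genes may not have been kept apart.

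Neither atypical gene was called. Dusp3, a small phosphatase of ERK and JNK, on chromosome 11 from 101971143 to 101987013, had 58.2 and 71.9 CPM in HFD, against 90.3 and 77 CPM in CD, and was not called (log2 fold change -0.36, 95% interval -0.78 to 0.05, edgeR adjusted p = 0.203). Dusp22, which is linked to JNK signalling and to restraint of T cell receptor signals, lies on chromosome 13 from 30659999 to 30711231. It had 19.8 and 17.4 CPM in HFD, against 18.4 and 14.2 CPM in CD, the sole gene of the 10 in which the diets overlapped (log2 fold change 0.19, 95% interval -0.28 to 0.67, adjusted p = 0.543).

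**Figure D3:**
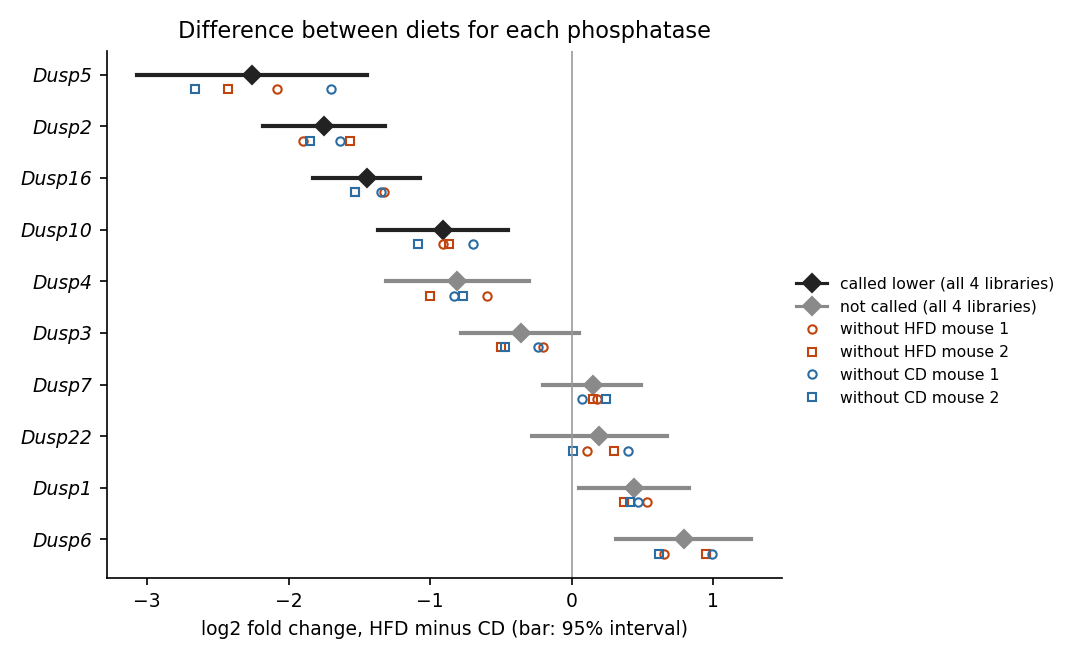
Log2 fold change (HFD minus CD) of each phosphatase with its 95% interval from edgeR; black marks genes called lower, grey genes not called, and small open symbols the value with 1 library left out. Dusp5, Dusp2, Dusp16 and Dusp10 lie at -2.26 to -0.91 and Dusp6 at 0.79, and no gene crosses 0 when a library is left out.

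Ratios of 2 genes within a library do not depend on how libraries are scaled. Dusp6 had 9.9 and 6.3 reads per read of Dusp5 in the HFD libraries, against 0.81 and 1.22 in the CD libraries. Dusp1 had 27.4 and 38.4 reads per read of Dusp2 in HFD, against 6.78 and 7.5 in CD. Dusp7 had 2.19 and 1.94 reads per read of Dusp16 in HFD, against 0.602 and 0.772 in CD. In each ratio both HFD mice lay above both CD mice. The pairs were picked after the values were seen, and the ratios are descriptions with no test.

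Levels of different genes were compared as CPM per kb of exon, so that long transcripts do not count for more. In HFD the order began with Dusp1 (425 and 476 CPM per kb) and Dusp6 (121 and 98.3). Then came Dusp2 (25.7 and 20.5), Dusp5 (15.5 and 19.8), Dusp7 (17.6 and 17.9) and Dusp3 (12.4 and 15.4), of which Dusp5 and Dusp7 overlapped. At the low end Dusp10 (4.27 and 4.15), Dusp16 (3.46 and 3.99), Dusp22 (3.87 and 3.4) and Dusp4 (2.82 and 3.71) lay close together, and the last 3 overlapped. In CD, Dusp1 again led (340 and 327 CPM per kb), but Dusp5 (112 and 57.4) and Dusp2 (82.9 and 72) stood beside Dusp6 (71.4 and 55.3), with Dusp5 overlapping both of the others. Dusp3 (19.3 and 16.5) and Dusp7 (15.1 and 17.1) overlapped, and Dusp16 (10.8 and 9.52), Dusp10 (8.96 and 6.86), Dusp4 (5.58 and 5.83) and Dusp22 (3.6 and 2.77) followed without overlap. This order depends in part on the length used. By the longest transcript, Dusp22 had 6.56 and 5.77 and Dusp16 5.29 and 6.09 CPM per kb in HFD, above Dusp10 (4.65 and 4.53). By the same length in CD, Dusp22 (6.1 and 4.7) overlapped Dusp4 (5.58 and 5.83), and Dusp16 (16.5 and 14.5) overlapped Dusp7 (15.8 and 17.8).

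The sum over the 10 genes was similar in the diets while its make-up was not. The sum was 632 and 663 CPM per kb in HFD, against 669 and 570 CPM per kb in CD. Dusp5, Dusp2, Dusp16 and Dusp10 made up 7.73 and 7.3% of it in HFD, against 32 and 25.6% in CD. Dusp1 and Dusp6 together made up 86.4 and 86.6% in HFD, against 61.5 and 67% in CD. The 4 genes were grouped by their calls, so the direction of their share was given in advance and is no further result. The same holds for Dusp1 and Dusp6, which had higher values in HFD and make up most of the rest.

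**Figure D4:**
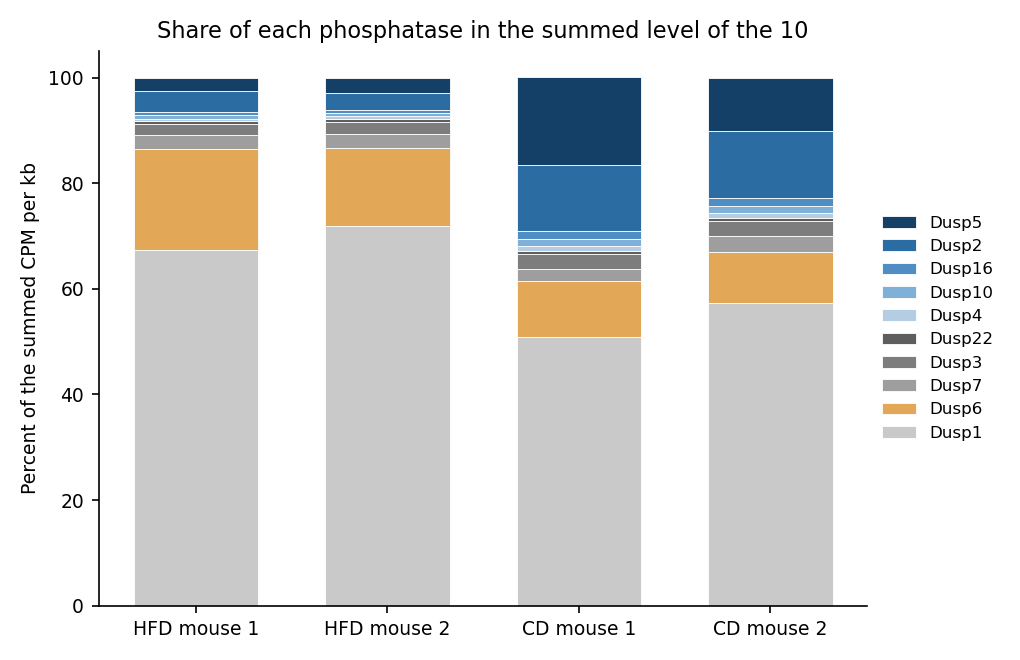
Stacked bars of the share of each phosphatase in the summed CPM per kb of the 10 genes, 1 bar per library. Dusp1 and Dusp6 (pale grey and orange) fill 86.4 and 86.6% of the HFD bars and 61.5 and 67% of the CD bars. Dusp5 and Dusp2 (dark blues) are wider in CD. The direction of these shares follows from the values of the single genes and is no further result.

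Patterns over the 4 libraries were compared among the genes with an average log2 CPM of 3 or above. Most like Dusp5 were Ltb4r1, a leukotriene B4 receptor gene, Kdm6b, a histone demethylase gene, and Thbd, the thrombomodulin gene. Likeness was the distance between log2 CPM values, each centred on the mean of its gene, and it was 0.0603, 0.133 and 0.14 for these genes. Kdm6b had 170 and 202 CPM in HFD, against 1077 and 591 CPM in CD. For Dusp2 the nearest were Rel, an NF-kB subunit gene, at 0.0823, Nabp1, at 0.225, and Spty2d1, at 0.226. Rel had 75.4 and 61.6 CPM in HFD, against 231 and 204 CPM in CD, a pattern that repeats that of Dusp2 mouse by mouse. With 4 libraries, such nearness is a description only.

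Other phosphatases of the same kinases were not called. Of the 2 remaining genes of the MAP kinase phosphatase class, Dusp8, a JNK and p38 enzyme, had 2.43 and 3.41 CPM in HFD, against 6.54 and 4.44 CPM in CD (log2 fold change -0.91, adjusted p = 0.114). Dusp9, a cytoplasmic ERK enzyme, had 37.5 and 44.3 CPM in HFD, against 38.4 and 21.4 CPM in CD (0.45, adjusted p = 0.315). EdgeR called 0 of the 2, 1 had an unadjusted p below 0.05 (Dusp8), and DESeq2 called 0. Over all 18422 genes tested, 3256 were lower and 2501 higher at that unadjusted threshold. Of 8 tested atypical enzymes, edgeR and DESeq2 called 0 and 0 had an unadjusted p below 0.05 (median log2 fold change 0.24), with Styx and Dusp19 at the smallest p (adjusted p = 0.253 and 0.271). Of 8 other phosphatases of MAP kinases, edgeR called 0, 1 was lower at an unadjusted p below 0.05 and DESeq2 called the same 1, Ptpn7, a tyrosine phosphatase of blood cells that acts on ERK and p38. It had 87.3 and 91.8 CPM in HFD, against 125 and 153 CPM in CD (-0.63, edgeR adjusted p = 0.0572).

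Of 12 tested MAP kinase genes, 1 fell and 0 rose by edgeR (median log2 fold change 0.11), with 3 lower and 2 higher at an unadjusted p below 0.05 and DESeq2 calling 1 and 0. The HFD libraries lay above both CD libraries in 6 of the 12 and below both in 4. Those shares were 32.2% and 31.6% over all genes tested, of which 7.91% were called lower. At an unadjusted p below 0.05, 3256 of the 18422 genes tested were lower and 2501 higher. The gene that fell was Mapk13, a p38 kinase of low level here, with 1.55 and 1.49 CPM in HFD, against 6.75 and 5.19 CPM in CD (-1.97, adjusted p = 0.0171), a call that ended without HFD mouse 1 (adjusted p = 0.079) or HFD mouse 2 (adjusted p = 0.0797). Mapk10, a JNK gene at the edge of detection, had 0.0534 and 0.13 CPM in HFD, against 0.339 and 0.349 CPM in CD (-1.86, adjusted p = 0.123). It is among the 3 genes lower at an unadjusted p below 0.05. Mapk10 passed the low-count filter through the CD libraries alone, so the filter favoured its place in that count. Mapk3, Mapk14 and Mapk8 are named here after their values were seen. The ERK gene Mapk3 had 185 and 219 CPM in HFD, against 200 and 189 CPM in CD (log2 fold change 0.06, 95% interval -0.32 to 0.44, adjusted p = 0.834). The p38 gene Mapk14 had 168 and 160 CPM in HFD, against 207 and 217 CPM in CD (-0.37, adjusted p = 0.136), and the JNK gene Mapk8 had a log2 fold change of 0.19 (adjusted p = 0.542).

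Calls among the upstream kinases were falls, as were most calls over all genes tested (7.91% lower and 2.61% higher). At an unadjusted p below 0.05, 3256 of all 18422 genes tested were lower and 2501 higher. Of 19 tested RAF and MAP3 kinase genes 5 fell and 0 rose by edgeR (9 lower and 0 higher at an unadjusted p below 0.05, and 5 and 0 by DESeq2). The median log2 fold change was -0.43, also with the gene at 0 reads in HFD, Mos, set to a bound of 3 reads over the diet, and 1 gene of the 19 had a positive value. Map3k5, which encodes the stress-activated kinase ASK, had 36.9 and 30.9 CPM in HFD, against 58.6 and 60.3 CPM in CD (-0.81, adjusted p = 0.0317). Map3k9 had 11.6 and 16.5 CPM in HFD, against 25.9 and 32.6 CPM in CD (-1.06, adjusted p = 0.0399), and Map3k12 had 10.1 and 11.7 CPM in HFD, against 17.6 and 20.1 CPM in CD (-0.8, adjusted p = 0.0467). Both encode kinases that feed JNK. Map3k15, named after its values were seen, fell as well (-1.16, adjusted p = 0.0483), as did Mos, a gene that had 0 reads in both HFD libraries (adjusted p = 0.0339). Mos passed the low-count filter through the CD libraries alone, where it is high, so the filter favoured its call. At a minimum count of 50 the list had 2 calls, and Map3k12 was not among them (adjusted p = 0.0518). Of 7 MAP kinase kinase genes 1 fell and 0 rose (median -0.24, 2 and 0 at an unadjusted p below 0.05, 1 and 0 by DESeq2). It was Map2k3, an activator of p38, with 68.7 and 79.5 CPM in HFD, against 147 and 113 CPM in CD (-0.81, adjusted p = 0.0435). Of 9 genes of RAS and its adaptors edgeR and DESeq2 called 0 (median -0.12, 1 higher and 1 lower at an unadjusted p below 0.05), and Sos2 had -0.52 (adjusted p = 0.0662). The RAF and MAP3 kinase list and the MAP kinase kinase list had 0 calls of a fall without HFD mouse 1 and without HFD mouse 2, and Map2k3 also lost its call without CD mouse 1 (adjusted p = 0.0633).

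Downstream, 2 of 11 kinases activated by MAP kinases fell and 1 rose (median -0.33, 3 and 1 at an unadjusted p below 0.05, 2 and 1 by DESeq2). Over all 18422 genes tested, 7.91% were called lower and 2.61% higher, and 3256 were lower and 2501 higher at that unadjusted p. Mknk2, a kinase of the translation factor eIF4E, had 189 and 270 CPM in HFD, against 642 and 489 CPM in CD (log2 fold change -1.3, adjusted p = 0.0294). Mapkapk3, a p38-activated kinase, had 138 and 157 CPM in HFD, against 307 and 262 CPM in CD (-0.95, adjusted p = 0.0267). Rps6ka6, an RSK family gene of low level, rose to 5.5 and 4.95 CPM in HFD, against 1.79 and 2.07 CPM in CD (1.43, adjusted p = 0.0292). Without HFD mouse 1 the list had 0 calls, and without HFD mouse 2 Mknk2 alone remained. Of 7 scaffold genes 1 fell and 0 rose (median -0.41, 3 and 1 at an unadjusted p below 0.05, 2 and 1 by DESeq2), Ksr1, a scaffold of RAF and MEK, with 12.1 and 12.4 CPM in HFD, against 29 and 22.2 CPM in CD (-1.06, adjusted p = 0.0287, and 0.142 and 0.116 without HFD mouse 1 and HFD mouse 2).

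Other feedback inhibitors and outputs of ERK were counted next. The background over all 18422 genes tested was 7.91% called lower and 2.61% called higher. At an unadjusted p below 0.05 it was 3256 lower and 2501 higher. Of 6 Sprouty and Spred genes, which restrain RAS and RAF, edgeR and DESeq2 called 0 (median 0.25, 1 higher and 1 lower at an unadjusted p below 0.05). Spry1 had 22.2 and 20.3 CPM in HFD, against 15.5 and 9.03 CPM in CD (0.79, adjusted p = 0.113), and Spred2 had 60.1 and 65.7 CPM in HFD, against 87.2 and 88.9 CPM in CD (-0.48, adjusted p = 0.0741). Of 14 ERK-induced genes 3 fell and 0 rose (median -0.19, 4 and 3 at an unadjusted p below 0.05, 4 and 2 by DESeq2). Phlda1 had 17.4 and 23.2 CPM in HFD, against 55.6 and 51.3 CPM in CD (-1.4, adjusted p = 0.0147). The early gene Ier3 had 125 and 192 CPM in HFD, against 556 and 388 CPM in CD (-1.57, adjusted p = 0.0276, and 0.0897 without HFD mouse 1). Egr3 had 5.98 and 4.3 CPM in HFD, against 33.1 and 16.8 CPM in CD (-2.28, adjusted p = 0.0232, and 0.0873 and 0.115 without HFD mouse 1 and HFD mouse 2). The ERK-induced list had 1 gene called lower without HFD mouse 1 and 2 without HFD mouse 2, and without CD mouse 1 it had 4 called lower and 4 higher.

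Glucocorticoids are a known inducer of Dusp1, and of 9 other genes they induce 1 rose and 0 fell by edgeR (median -0.15, 1 and 3 at an unadjusted p below 0.05, 1 and 2 by DESeq2). It was Tsc22d3, which encodes the glucocorticoid-induced leucine zipper, with 195 and 158 CPM in HFD, against 85.1 and 107 CPM in CD (log2 fold change 0.88, adjusted p = 0.04). That call ended without HFD mouse 1 (adjusted p = 0.192), without HFD mouse 2 (0.0719), without CD mouse 1 (0.0535) and at a minimum count of 50 (0.053). Errfi1 had -0.62 (adjusted p = 0.0693). For comparison, 2.61% of all 18422 genes tested were called higher and 7.91% lower. At an unadjusted p below 0.05, 2501 were higher and 3256 lower.

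**Figure D5:**
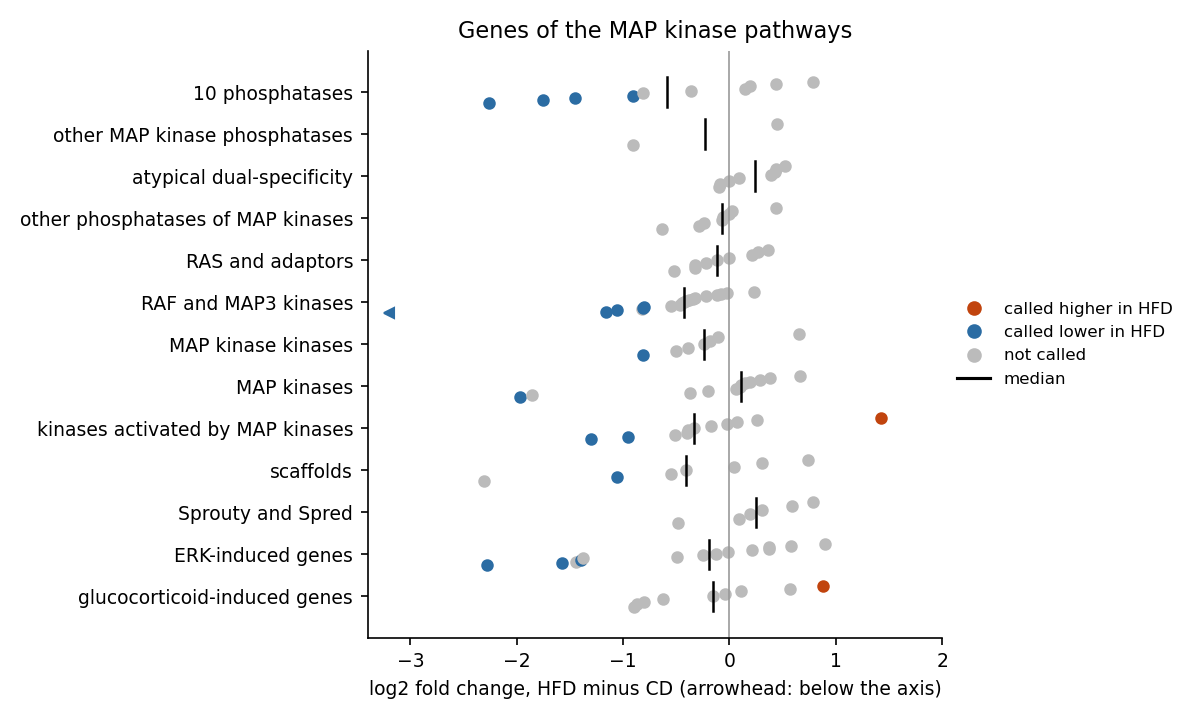
Log2 fold change (HFD minus CD) of the 10 phosphatases and of the tested genes of 12 lists, 1 point per gene, with the median of each list as a black line. The last list holds glucocorticoid-induced genes, and the others are lists of the MAP kinase pathways. The arrowhead is Mos, which had 0 reads in HFD and lies beyond the axis. Blue genes were called lower and red genes higher in HFD; blue points lie among the kinases upstream and downstream and the ERK-induced genes, and the MAP kinases centre near 0 (median 0.11).

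Markers of other cells and of handling were counted too, and the sums of some lists overlapped between the diets while those of others did not. The background was 7.91% of all genes tested called lower and 2.61% called higher. At an unadjusted p below 0.05 it was 3256 lower and 2501 higher of 18422 genes. Macrophage markers summed to 12388 and 13038 CPM in HFD, against 8292 and 12006 CPM in CD, and edgeR and DESeq2 called 0 of 9 (1 higher at an unadjusted p below 0.05). Of 8 tested neutrophil markers 6 fell, and 1 without HFD mouse 1 or without HFD mouse 2. The list summed to 191 and 169 CPM in HFD, against 382 and 190 CPM in CD, mostly from Csf3r and Mmp9, which were not called. S100a9 had 2.75 and 2.19 CPM in HFD, against 55.4 and 24.8 CPM in CD. In the HFD libraries Ly6g had 0 reads in both, Ngp had 1 and 0, and Retnlg had 3 and 6. These genes passed the low-count filter through the CD libraries alone, so the filter favoured their calls. Of 8 dendritic cell markers 2 fell by edgeR (5 by DESeq2 and at an unadjusted p below 0.05, 1 when either HFD mouse was left out, 1 without a low-count filter or at a minimum count of 50, and 6 without CD mouse 2), with sums of 38.5 and 45.7 CPM in HFD, against 113 and 69.8 CPM in CD. Of 5 epithelial markers 4 fell (0 without HFD mouse 1 or without HFD mouse 2, and 1 without a low-count filter), with sums of 39.4 and 45.9 CPM in HFD, against 154 and 105 CPM in CD, and the keratins Krt8, Krt18 and Krt19 had 1 to 3 reads in each HFD library and passed the filter through the CD libraries alone. Of 11 T and NK cell markers 1 rose and 1 fell (2 rose without CD mouse 1; 0 fell when either HFD mouse was left out or without a low-count filter, 2 by DESeq2 and 4 without CD mouse 2), with sums of 31.6 and 27.4 CPM in HFD, against 99.1 and 24.9 CPM in CD. Of 4 tested B cell markers 1 fell, Cd79a, with sums of 15.4 and 17.2 CPM in HFD, against 11.3 and 18.4 CPM in CD. Cd79a (1 and 3 reads in HFD) and the called dendritic cell marker Cd209a (7 and 6 reads in HFD) passed the filter through the CD libraries alone, which favoured their calls. The mast cell and basophil list summed to 4.25 and 4.48 CPM in HFD, against 27.2 and 8.04 CPM in CD, with 0 of 2 tested genes called by edgeR, 2 at an unadjusted p below 0.05 and 1 by DESeq2. Cpa3, 1 of these 2, had 6 and 0 reads in HFD and passed the filter through the CD libraries alone, which favoured its place in that count. Without CD mouse 2, edgeR called 1 mast cell marker lower, 1 B cell marker higher and 4 macrophage markers higher, and without a low-count filter 1 macrophage marker higher. Of 7 fibroblast markers 4 rose by edgeR (6 by DESeq2 and 7 at an unadjusted p below 0.05). Lum, among these 7, had 8 and 9 reads in CD and passed the filter through the HFD libraries alone, which favoured its place in that count. The list summed to 2013 and 1993 CPM in HFD, against 1021 and 770 CPM in CD, mostly from Col3a1. Col1a1 was not called by edgeR without a low-count filter (adjusted p = 0.144). Its log2 fold change was 2.73, and 2.09 without HFD mouse 2. Of 12 genes induced by tissue dissociation 1 fell and 0 rose by edgeR (3 and 1 by DESeq2, 3 and 2 at an unadjusted p below 0.05 and without a low-count filter). When 1 library was left out, 0 to 5 fell and 0 to 3 rose. The gene that fell was Ier3, which the ERK-induced list also holds. The dissociation list summed to 9832 and 10765 CPM in HFD, against 12730 and 9285 CPM in CD. CD mouse 1 had the highest sums of the neutrophil, dendritic, epithelial, T and NK, and mast cell lists, while the keratins were highest in CD mouse 2. Most of the epithelial sum came from Cdh1, which edgeR did not call, with 38.5 and 45.2 CPM in HFD, against 144 and 57 CPM in CD. Without CD mouse 1, the log2 fold changes were -1.7 for Dusp5 (adjusted p = 0.00346), -1.64 for Dusp2 (0.0033), -1.35 for Dusp16 (0.00493) and -0.7 for Dusp10 (0.0492), and without CD mouse 2 they were -2.66, -1.85, -1.53 and -1.09 in the same order of genes, all still called. The part of these other cells and of handling in the differences of the phosphatases was not tested.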

How the data were processed

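PolyA RNA of macrophages sorted from MC38 tumours was sequenced in 4 libraries. The authors deposited whole-number counts of reads per versioned Ensembl gene, not normalised. The submitters' processing notes name DESeq2 1.24.0, BWA 0.7.12, FastQC 0.11.5 and cutadapt 1.15, with GRCm38 and mm10 as builds. How reads were counted, with which annotation and strand setting, is not given in the sources used here. Each title names a mouse, so libraries were treated as mice.

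Symbols were matched by identifier for 53274 of 53379 genes; the other 105 held 0.012 to 0.0129% of a library's counts. Positions and exon lengths came from GENCODE mouse release 21 (GRCm38) and are given where the identifier's version was the same there, which leaves out Dusp1, whose length may therefore differ from the one counted. Promoter windows are those of RefSeq.

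Genes were tested with edgeR 4.0.16 (R 4.3.3): filterByExpr (minimum count 10, total 15), TMM, robust dispersions and the quasi-likelihood test with diet as the only term, Benjamini-Hochberg adjusted over all 18422 genes. CPM use TMM-scaled library sizes, errors are SD over 2 mice, and the SE is the log2 fold change over the square root of F. DESeq2 1.42.0, other scalings and filters, left-out libraries and a replicate block were alternatives. The steps were tested on simulated data. The 21 lists held 192 symbols, of which 190 were matched.

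The phosphatases, the lists and the tests were chosen with earlier results of these data known. Named genes are the 10 phosphatases, the sort markers, the called genes of each list (up to 4 by p) or, with fewer than 2 called, its 2 of smallest p, and the 3 genes nearest in pattern to the 2 most abundant called phosphatases. Not every gene so chosen is described, and 1 further result is not reported here.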

Additional observations from a re-analysis of the deposited data

How the results depend on the processing

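The direction of all 10 phosphatases was the same under the 10 settings tried, and Dusp2 and Dusp16 were called lower in each of them. The number of phosphatases called lower was 4, and 5 (with Dusp4) with DESeq2 and without a low-count filter, and 2 to 5 when 1 library was left out; the number called higher was 0, and 1 (Dusp6) with DESeq2, without a low-count filter and with the replicate block, and 0 to 1 when 1 library was left out. With 1 mouse left in a diet, that mouse is assumed to vary as the pair of the other diet does.

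The replicate block gave 567 genes higher and 1481 lower, and edgeR adjusted p of 0.0391 for Dusp6 and 0.0632 for Map3k12. The mice share only a number: deviations of same-numbered mice from the mean of their diet had a correlation of -0.188 across 10312 genes. Genes called higher numbered 1056 with DESeq2, 1552 without a filter, 262 at a minimum count of 50, and 71 to 1934 when 1 library was left out. Genes called lower numbered 2231 without a filter, 891 at a minimum count of 50, and 300 to 2534 when 1 library was left out. The cause was not tested. By the longest transcript in place of all exons, the level was 561 CPM per kb for Dusp1 (392 by all exons) and 5.78 for Dusp22 (3.41 by all exons), from the shorter length.

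Log2 fold changes near 0 changed sign: Itgam had -0.01 with upper-quartile scaling and at a minimum count of 50, -0.09 without HFD mouse 2, and -0.19 to 0.27 when 1 library was left out. Leaving out 1 library gave -0.22 to 0.52 for Adgre1 and -0.03 to 0.84 for Cd79b, lowest without CD mouse 1 in each of the 3. With 2 mice a diet, small differences such as that of Dusp7 cannot be told from the spread between mice.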
